A study of Mus musculus with 9 samples.

Results

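The genes described here are those of interferon-β, of the receptor chains for type I and type II interferon, and of the Janus kinases bound to those chains: *Ifnb1*, *Ifnar1*, *Ifnar2*, *Ifngr1*, *Ifngr2*, *Jak1*, *Jak2* and *Tyk2*. The rule that picked them was the gene symbol, and each symbol matched 1 row of the count table, giving 8 of 55471 genes. All 8 were among the 16260 genes with enough counts to be tested. The RNA came from dendritic cells (DCs) grown from bone marrow with the growth factor GM-CSF, and the bone marrow was from wild-type female C57BL/6 mice aged 8 to 20 weeks. Of 9 libraries, 3 were from unstimulated DCs, 3 from DCs activated for 6 h with LPS (100 ng/mL), the bacterial cell wall component sensed by TLR4, and 3 from DCs given IFN-β protein (1000 U/mL) for 6 h. In each condition the libraries carry the letters A, B and C, and nothing in the labels says whether they came from separate animals or cultures, so p-values measure the spread between these libraries. GM-CSF cultures are a mixture of DCs and macrophage-like cells, and in bulk RNA fewer cells of a type and less RNA per cell cannot be told apart.

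IFN-β is a secreted cytokine that cells make after sensing microbes. It binds a receptor made of the chains IFNAR1 and IFNAR2, which carry the kinases TYK2 and JAK1; these phosphorylate STAT proteins, STAT2 among them, which join IRF9 and switch on interferon-stimulated genes. IFN-γ binds a separate receptor of the chains IFNGR1 and IFNGR2, which carry JAK1 and JAK2. In DCs activated through TLR4, IFN-β is made through the adaptor TRIF and the transcription factor IRF3, and it acts back on the cells that release it.

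The libraries held between 33425803 and 43735199 counts on genes. CPM below is counts per 1000000 on library sizes corrected with TMM, a scaling that takes most genes as unchanged, and 3 counts correspond to between 0.0674 and 0.106 CPM. The TMM factors differed by condition, from 1.18 to 1.26 in unstimulated, 0.783 to 0.841 in LPS-activated and 0.977 to 1.02 in IFN-β-treated DCs. All 10 marker genes of GM-CSF DCs passed the filter, and their summed level was between 8629 and 10881 CPM in every library. The sum hides single changes: with LPS 5 of the 10 were higher and 1 lower at an adjusted p under 0.05 (edgeR's quasi-likelihood test). Of all tested genes 32.8% were higher and 35.4% lower. Scaled by library size alone, 1 of the 10 was higher and 5 were lower with LPS, where 21.9% of all calls were higher. Of 5 plasmacytoid DC markers, 3 had at most 3 counts in any library, *Siglech* among them, while the sum of the list went from 36.4 to 44.2 CPM in unstimulated up to 209 to 255 CPM in LPS-activated and 73.3 to 95.8 CPM in IFN-β-treated DCs, nearly all of it from *Tcf4*. The part of these in the results was not tested. Macrophage markers summed to between 919 and 1547 CPM, neutrophil markers to between 9.24 and 23.4 CPM, and B cell markers to at most 0.495 CPM. Of the 5 macrophage markers, 2 were higher and 2 lower with LPS, and 2 and 3 on library size alone.

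Of the 8 genes, 3 had a match, in the 250 bases before the RefSeq start, to the core motifs searched. The share of all promoters with a match to any of these motifs was not counted. A stretch of 70 bases around the matches of each gene is printed to show what lies upstream of the ligand and of the receptor chains. The motifs were the core bound by interferon regulatory factors (AANNGAAA), the core of the gamma-activated site bound by STAT dimers (TTCNNNGAA) and a κB core (GGGANNTTC), each read on both strands. Capitals mark the matches. The stretches are read on the strand of the gene from RefSeq, build GRCm38.p6, at chr4:88522893-88522962 on the minus strand for *Ifnb1*, chr16:91372538-91372607 on the plus strand for *Ifnar2*, and chr16:91546954-91547023 on the plus strand for *Ifngr2*.
Ifnb1: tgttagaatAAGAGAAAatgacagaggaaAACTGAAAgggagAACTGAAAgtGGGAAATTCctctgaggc
Ifnar2: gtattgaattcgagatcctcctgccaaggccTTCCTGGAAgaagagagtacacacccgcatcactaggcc
Ifngr2: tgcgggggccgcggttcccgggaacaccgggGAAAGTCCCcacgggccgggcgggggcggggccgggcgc

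The *Ifnb1* stretch held 3 interferon regulatory factor cores, beginning 159, 139 and 126 bases before the start, and 1 κB core beginning 116 bases before it. Of 32851 promoters of the same length, 21.3% held at least 1 interferon regulatory factor core, 0.849% held at least 3, and 0.0335% held at least 3 together with a κB core. The *Ifnar2* stretch held 1 STAT core, beginning 214 bases before the start, and 7.02% of promoters held one. The *Ifngr2* stretch held 1 κB core on the opposite strand, beginning 74 bases before the start, and 3.23% of promoters held one. A match gives only the letters and does not show a bound site.

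Measured by library, *Ifnb1* was nearly silent in unstimulated DCs, was high in LPS-activated DCs and was low but above the unstimulated libraries after IFN-β protein. *Ifnb1* (ENSMUSG00000048806) is a gene of 1 exon on chromosome 4, at chr4:88522025-88522774 of GRCm38 on the minus strand. In the order A, B, C, the unstimulated libraries held 0, 0 and 1 counts of it, the LPS libraries 137, 117 and 93, and the IFN-β libraries 9, 5 and 9. The 3 conditions did not overlap. In CPM the means were 0.00752 ± 0.0130, 3.70 ± 1.03 and 0.197 ± 0.0591 (SD, n = 3 each).

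Pooled over libraries and corrected for their sizes, *Ifnb1* was 468 times as high in LPS-activated as in unstimulated DCs, with a 95% exact interval for counting error from 83.4 to 18538, since the unstimulated libraries held 1 count in all, in library C. Without that library the fitted log2 fold change went from 8.38 to 10.09 with LPS and from 4.18 to 5.89 with IFN-β, values that then depend on the prior count of the fit. The IFN-β-treated level was 25.3 times the unstimulated one (4.11 to 1043) and 5.41% of the LPS level (3.38% to 8.25%). In edgeR's quasi-likelihood test, with p-values adjusted after Benjamini and Hochberg over the 16260 genes, *Ifnb1* was higher with LPS (adjusted p = 1.4e-07) and with IFN-β (adjusted p = 0.00178), and lower with IFN-β than with LPS (adjusted p = 2.5e-06). The counts of *Ifnb1* passed the filter only through the LPS libraries. Without those it was not tested between IFN-β and unstimulated DCs. Its p-values and its place among the tested genes are therefore given only as a description. Only 0.117% of tested genes had a larger fitted log2 fold change under LPS. Set beside it, and chosen after its values were seen, *Il12b*, a cytokine gene of TLR activation, stood in IFN-β-treated DCs at 0.118% of its LPS level, where the corresponding value for *Ifnb1* from the condition means was 5.33%.

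None of the 20 other interferon genes looked for, of the α, ε, κ, λ, ζ and γ types, had enough counts for the test. Of them, 11 were at 0 in every library and 8 reached at most 3 counts in any library, so differences in them were not detectable at this depth. The exception was *Ifna5*, an interferon-α gene, with 19, 10 and 12 counts in LPS-activated DCs and 0 in each of the other 6 libraries. Its pooled LPS level was 18.4-fold a floor of 3 counts over the unstimulated and 16.7-fold that over the IFN-β libraries. The counting error of the LPS level does not enter these values. *Ifna5* lies in a family of near-identical genes, so its counts are uncertain.

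**Figure D1:**
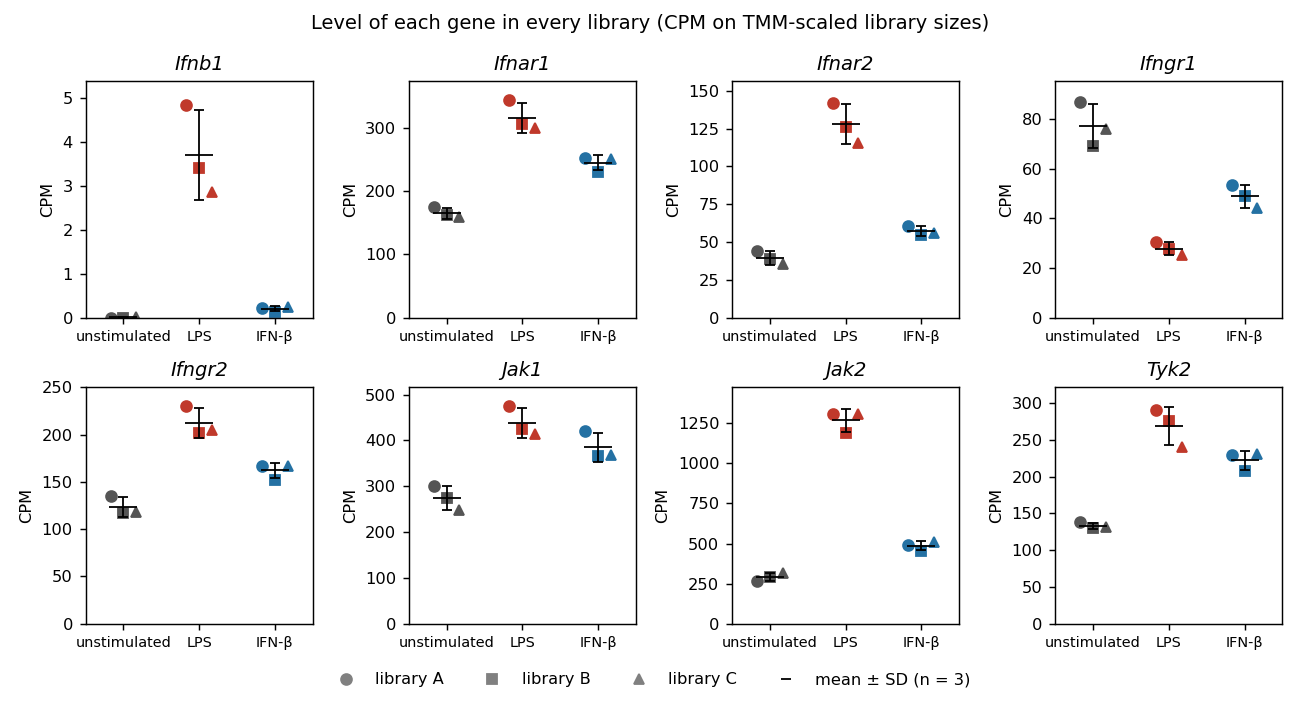
CPM of each gene in every library, on a linear axis from 0 with its own range in each panel; the shape of a point gives the library letter and the bars the mean ± SD (n = 3). *Ifnb1* was at 0.0226 CPM or below in unstimulated and at 2.86 CPM or above in LPS-activated DCs, *Ifngr1* was highest in unstimulated DCs, and the remaining genes were lowest there.

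With LPS, all 8 genes passed the test at an adjusted p under 0.05, 7 of them higher and 1 lower, where 68.2% of all tested genes passed, 32.8% higher and 35.4% lower. With IFN-β, likewise 7 were higher and 1 lower, beside 46.9% of all tested genes, 23.6% higher and 23.3% lower. In each of the 3 comparisons the called genes include *Ifnb1*, which passed the filter only through the LPS libraries. Its part in these counts is thus only a description. A fit of the IFN-β and unstimulated libraries alone called 7 of the 8 genes in all, and 7655 over all the genes it tested. Directly compared, IFN-β-treated DCs had 6 of the 8 lower and 1 higher than LPS-activated DCs, beside 49.1% of all tested genes, 23.3% lower and 25.8% higher. The median log2 fold change of the 8 was 0.98, 0.55 and -0.38 in the 3 comparisons, and that of all tested genes -0.04, -0.02 and 0.02. These comparisons share libraries, so their values are set side by side and are not independent. Scaling by library size alone moved the median of all genes by -0.58, -0.31 and 0.27, and with it 21.9% of the calls under LPS were higher in place of 48.1%, 22.3% in place of 50.3% under IFN-β, and 77.9% in place of 52.5% for IFN-β against LPS. On that scale 6 of the 8 genes were called higher with LPS and 5 with IFN-β, with *Ifngr1* called lower in both. Over all tested genes it called 12683, 9630 and 9020 in the 3 comparisons, in place of 11084, 7631 and 7989. Shares of calls on library size alone, here and below, are shares of these numbers and not of all tested genes. An exact permutation test of 3 libraries against 3, two-sided, cannot go below 0.1.

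The type I receptor genes both rose with LPS and with IFN-β, and with LPS the log2 fold change of *Ifnar2* was the larger. *Ifnar1* (ENSMUSG00000022967, chr16:91485238-91507441, plus strand) encodes the chain that carries TYK2. It stood at 174, 161 and 159 CPM in unstimulated DCs, at 343, 305 and 299 CPM with LPS, and at 252, 231 and 251 CPM with IFN-β. The 3 conditions did not overlap, with LPS highest and unstimulated lowest. The log2 fold change was 0.94 ± 0.08 (SE) with LPS, 0.57 ± 0.08 with IFN-β and -0.37 ± 0.08 for IFN-β against LPS, with adjusted p of 1.2e-06, 0.00017 and 0.00216 in edgeR's quasi-likelihood test. On library size alone the difference between IFN-β and LPS was -0.09 (adjusted p = 0.2) and was no longer called.

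*Ifnar2* (ENSMUSG00000022971, chr16:91372783-91405589, plus strand) encodes the chain that binds IFN-β tightly and carries JAK1. Its level was 44.3, 38.6 and 35.2 CPM in unstimulated DCs, 142, 126 and 116 CPM with LPS, and 60.7, 54.5 and 56.0 CPM with IFN-β. Each LPS library was above every IFN-β library, and each of those was above every unstimulated one. The log2 fold change was 1.70 ± 0.10 with LPS, 0.54 ± 0.10 with IFN-β and -1.17 ± 0.10 for IFN-β against LPS (edgeR's quasi-likelihood test, adjusted p = 1.2e-07, 0.00133 and 4.9e-06). Under LPS 8.92% of tested genes had a larger value. Of the exon bases of *Ifnar2*, 9.46% lie in exons of the gene model *Gm21970* on the same strand, where the counting leaves reads out.

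Because counts of a pair of genes in 1 library share its scaling, their ratio does not depend on the normalization. The raw count ratio of *Ifnar2* to *Ifnar1* was 0.255, 0.239 and 0.222 in unstimulated DCs, 0.415, 0.414 and 0.387 with LPS, and 0.241, 0.236 and 0.224 with IFN-β. The LPS libraries stood apart from the others, with a ratio 1.70-fold higher than in unstimulated DCs (exact permutation p = 0.1, the smallest 3 against 3 can give), while the IFN-β and unstimulated libraries overlapped (exact permutation p = 0.8). Over the 15 comparisons of 5 such ratios, the adjusted p was 0.125 wherever the libraries did not overlap, so none passed 0.05.

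**Figure D2:**
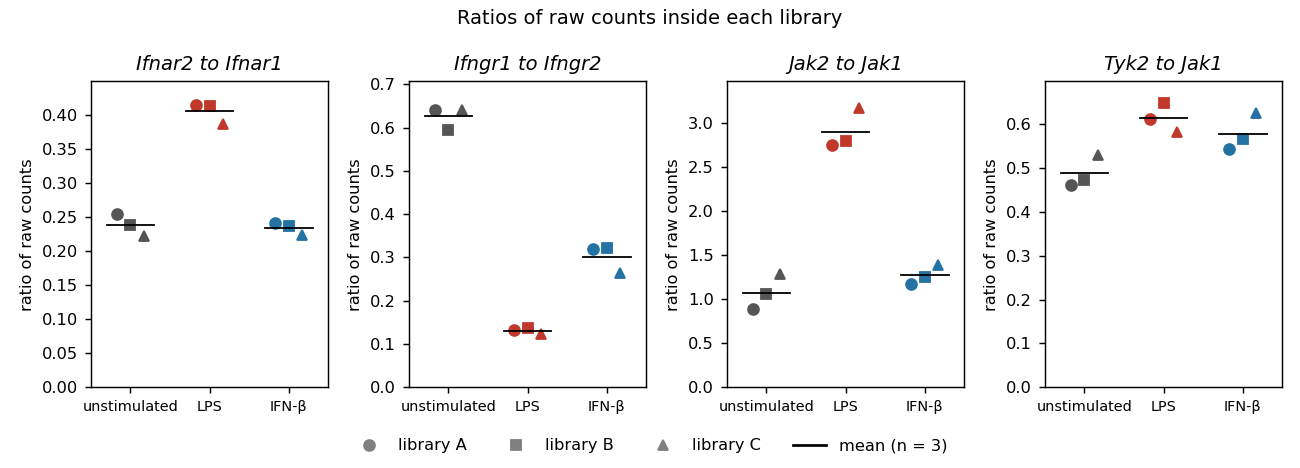
Ratio of raw counts between pairs of genes inside each library, on linear axes from 0; point shapes give the library letter and the line the mean of 3 libraries. The ratio of *Ifnar2* to *Ifnar1* was between 0.387 and 0.415 with LPS and between 0.222 and 0.255 in the other 6 libraries, and the ratio of *Ifngr1* to *Ifngr2* was lower with LPS than with IFN-β and lower with IFN-β than in unstimulated DCs.

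The IFN-γ receptor genes went in opposite directions. *Ifngr1*, for the chain that binds IFN-γ and carries JAK1, was the 1 gene of the 8 that fell with both treatments, and *Ifngr2*, for the chain that carries JAK2, rose with both. *Ifngr1* (ENSMUSG00000020009, chr10:19591949-19610229, plus strand) stood at 86.9, 69.3 and 75.9 CPM in unstimulated DCs, 30.5, 27.6 and 25.2 CPM with LPS, and 53.6, 49.0 and 44.1 CPM with IFN-β. No library of one condition reached the range of another. Its log2 fold change was -1.48 ± 0.11 with LPS, -0.66 ± 0.10 with IFN-β and 0.82 ± 0.11 for IFN-β against LPS (edgeR's quasi-likelihood test, adjusted p = 5.3e-07, 0.00048 and 0.0001). Under LPS 10.4% of tested genes had a lower value.

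*Ifngr2* (ENSMUSG00000022965, chr16:91547072-91565623, plus strand) stood at 135, 117 and 118 CPM in unstimulated DCs, 230, 201 and 205 CPM with LPS, and 167, 153 and 167 CPM with IFN-β. Its conditions did not overlap, and the order was that of *Ifnar1*. The log2 fold change was 0.78 ± 0.08 with LPS, 0.39 ± 0.08 with IFN-β and -0.39 ± 0.08 for IFN-β against LPS (edgeR's quasi-likelihood test, adjusted p = 8.8e-06, 0.00263 and 0.00252). On library size alone the IFN-β value was 0.09 (adjusted p = 0.25) and that of IFN-β against LPS -0.11 (adjusted p = 0.153), so both calls were lost.

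The raw count ratio of *Ifngr1* to *Ifngr2* was 0.641, 0.595 and 0.641 in unstimulated DCs, 0.133, 0.137 and 0.123 with LPS, and 0.321, 0.322 and 0.264 with IFN-β. It was thus 4.79-fold lower with LPS and 2.08-fold lower with IFN-β, with no overlap between conditions (exact permutation p = 0.1 each). The ratio of *Ifnar1* to *Ifngr1*, a comparison across the type I and type II receptors, was 2.14 on average in unstimulated DCs and was 5.33-fold higher with LPS and 2.35-fold higher with IFN-β. The ratio of *Ifngr1* to *Ifngr2* was 2.30-fold higher with IFN-β than with LPS (exact permutation p = 0.1).

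All 3 kinase genes rose with both treatments, and with LPS the fitted change was largest for *Jak2* and smallest for *Jak1*. *Jak2* (ENSMUSG00000024789, chr19:29251828-29313080, plus strand) encodes the kinase of IFNGR2 and of the GM-CSF receptor. It stood at 265, 290 and 318 CPM in unstimulated DCs, 1306, 1187 and 1310.0 CPM with LPS, and 492, 456 and 512 CPM with IFN-β. The LPS libraries were far above the others, and the IFN-β libraries were above every unstimulated one. The log2 fold change was 2.12 ± 0.09 with LPS, 0.74 ± 0.09 with IFN-β and -1.38 ± 0.09 for IFN-β against LPS (edgeR's quasi-likelihood test, adjusted p = 1.7e-08, 8.4e-05 and 7.1e-07). Under LPS 6.49% of tested genes had a larger value.

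*Jak1* (ENSMUSG00000028530, chr4:101152367-101265282, minus strand) encodes the kinase shared by both interferon receptors. It stood at 300, 275 and 249 CPM in unstimulated DCs, 476, 426 and 415 CPM with LPS, and 421, 366 and 368 CPM with IFN-β. Both treatments were above the unstimulated libraries, and the treatments overlapped each other. The log2 fold change was 0.67 ± 0.09 with LPS and 0.49 ± 0.09 with IFN-β (edgeR's quasi-likelihood test, adjusted p = 7.9e-05 and 0.00167), and on library size alone it was 0.09 (adjusted p = 0.271) and 0.18 (adjusted p = 0.0528). Between IFN-β and LPS it was -0.19 with a 95% interval from -0.39 to 0.02 (adjusted p = 0.123), which turned to 0.09 on library size alone; with the library letter as a block the adjusted p was 0.0142. A difference in *Jak1* between the treatments was thus within the spread in one model and not in the other.

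*Tyk2* (ENSMUSG00000032175, chr9:21104068-21131243, minus strand) encodes the kinase of IFNAR1. Its level was 138, 130 and 132 CPM in unstimulated DCs, 291, 276 and 241 CPM with LPS, and 229, 207 and 231 CPM with IFN-β. All 6 treated libraries were above the unstimulated ones, and the lowest LPS library lay just above the highest IFN-β library. The log2 fold change was 1.01 ± 0.08 with LPS and 0.74 ± 0.08 with IFN-β (edgeR's quasi-likelihood test, adjusted p = 1.1e-06 and 4.8e-05). For IFN-β against LPS it was -0.28 ± 0.08 (adjusted p = 0.0151), a call that was lost without LPS library A (adjusted p = 0.051), without IFN-β library B (0.071) and on library size alone (0.993). Of the exon bases of *Tyk2*, 8.07% overlap *1700084C06Rik* on the opposite strand, and the strand setting of the counting is not given in the sources used here.

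The raw count ratio of *Jak2* to *Jak1* was 0.883, 1.05 and 1.28 in unstimulated DCs, 2.74, 2.79 and 3.16 with LPS, and 1.17, 1.25 and 1.39 with IFN-β. The LPS libraries stood apart, 2.73-fold above the unstimulated mean (exact permutation p = 0.1), while the IFN-β and unstimulated libraries overlapped (exact permutation p = 0.3). Within each of the 3 letters the IFN-β library had a higher ratio than the unstimulated one, a shift not tested as pairs. The ratio of *Tyk2* to *Jak1* was 1.26-fold higher with LPS and 1.19-fold higher with IFN-β than in unstimulated DCs (exact permutation p = 0.1 each), and the treatments overlapped each other (exact permutation p = 0.3).

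**Figure D3:**
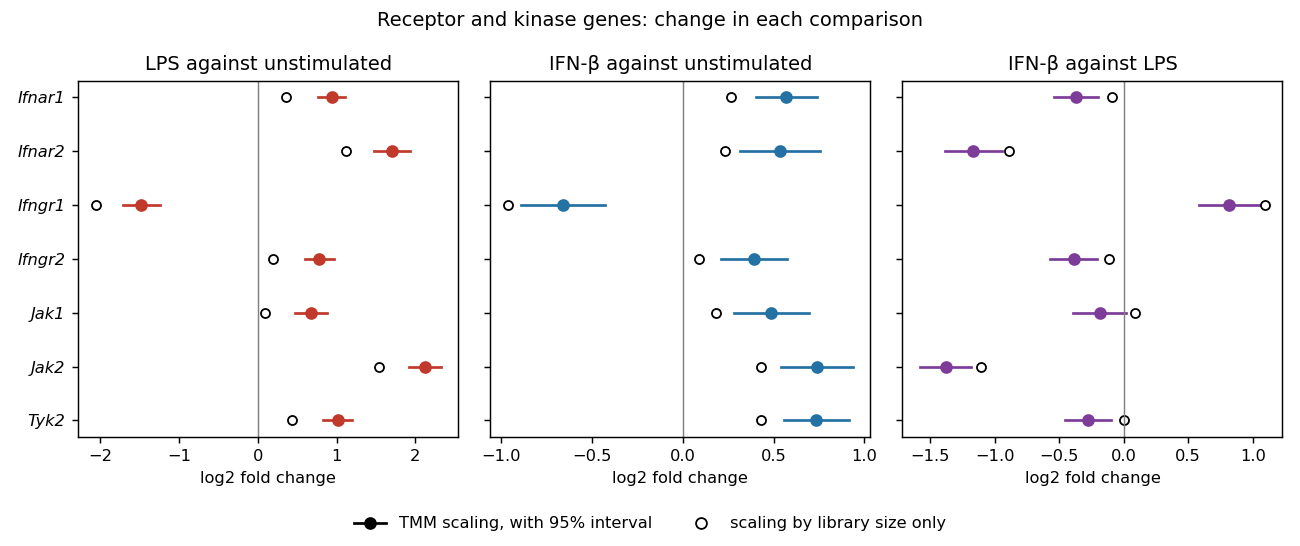
Log2 fold change of the receptor and kinase genes in the 3 comparisons, each panel with its own axis range; filled points use TMM scaling with 95% intervals from the model, open points library size alone. *Jak2* (2.12) and *Ifnar2* (1.70) were the highest under LPS, *Ifngr1* lay below 0 in both comparisons with unstimulated DCs, and *Jak1* between IFN-β and LPS changed sign with the scaling.

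Levels of different genes were compared as CPM per kb of exon. The length takes in all exon bases, for *Ifnar2* also the 9.46% where reads were left out of the counting. The level of *Ifnar2* may thus be understated, which limits its place beside *Tyk2* and *Ifngr1*. In unstimulated DCs the order was *Jak2* (57.9), *Jak1* (38.0), *Ifngr2* (32.8), *Ifnar1* (27.7), *Ifngr1* (27.2), *Tyk2* (19.4), *Ifnar2* (11.8) and *Ifnb1* (0.0100). The neighbours *Ifnar1* and *Ifngr1* did not differ beyond their spread. The ranges of *Jak1* and *Ifngr2* overlapped, while *Jak1* was the higher inside each of the 3 libraries. With LPS, *Jak2* (252) was followed by *Jak1* (60.7), *Ifngr2* (56.3) and *Ifnar1* (53.2), whose ranges overlapped from one to the next. Inside each of the 3 LPS libraries *Jak1* stood above *Ifngr2* and *Ifngr2* above *Ifnar1*. Then came *Tyk2* (39.2) and *Ifnar2* (38.5), which did not differ beyond their spread, then *Ifngr1* (9.75) and *Ifnb1* (4.94). With IFN-β, *Jak2* (96.8) and *Jak1* (53.3) again led, *Ifngr2* (43.0) and *Ifnar1* (41.1) overlapped, and *Ifngr1* (17.2) and *Ifnar2* (17.1) stood level. *Ifngr2* was above *Ifnar1* inside each of the 3 IFN-β libraries. *Ifngr1* thus moved from above *Tyk2* and *Ifnar2* in unstimulated DCs to below both with LPS.

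**Figure D4:**
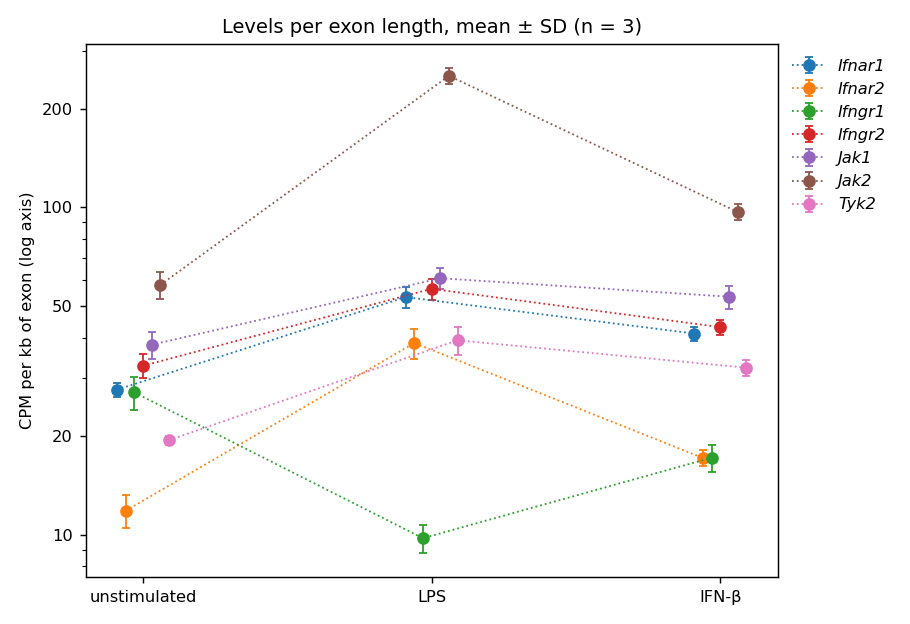
Mean level per kb of exon (log axis) of the receptor and kinase genes in the 3 conditions, bars showing SD over 3 libraries; dotted lines only join the points of 1 gene. *Jak2* was the highest in each condition, and *Ifngr1* and *Ifnar2* changed places between unstimulated (27.2 and 11.8) and LPS-activated DCs (9.75 and 38.5).

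*Ifnar2*, *Ifnar1* and *Ifngr2* lie on the plus strand within 192841 bp of chromosome 16, with *Il10rb*, for a chain of the IL-10 and interferon-λ receptors, between *Ifnar2* and *Ifnar1*. *Il10rb* begins 574 bp after *Ifnar2* ends, and *Ifngr2* begins 39630 bp after *Ifnar1* ends. *Il10rb* rose with LPS (log2 fold change 1.30) and with IFN-β (0.75), so the 4 receptor genes of the cluster were higher with both treatments. Of the 6 neighbours looked at, *Il10rb* included, 3 were higher and 3 lower with LPS, and 2 and 2 with IFN-β, beside 32.8% of all tested genes higher and 35.4% lower with LPS, and 23.6% and 23.3% with IFN-β. On library size alone 1 was higher and 4 were lower with LPS, and 1 was higher and 3 were lower with IFN-β. There, 21.9% and 22.3% of all calls were higher. *Gart*, an enzyme of purine synthesis, fell by 1.92 with LPS and by 1.13 with IFN-β on the log2 scale, and *Dnajc28* fell by 2.63 and by 0.81. *Donson* fell by 0.60 with LPS and was at -0.09 with IFN-β, not called. *Tmem50b* (0.50) and *Son* (0.28) were called higher with LPS under TMM and stood at -0.08 and -0.30 on library size alone, where *Son* was called lower, while with IFN-β *Tmem50b* was called at 0.42 and *Son* was at 0.16, not called, but called with the library letter as a block (adjusted p = 0.0304, edgeR's quasi-likelihood test). Of the exon bases of *Il10rb*, 14.9% overlap *Gm21970* on the same strand.

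Downstream of the kinases, 6 of the 7 genes listed for STAT factors and IRF9 were higher with LPS and 4 with IFN-β, and none was lower. Of all tested genes 68.2% were called with LPS (32.8% higher, 35.4% lower) and 46.9% with IFN-β (23.6% higher, 23.3% lower). On library size alone 5 were higher and 1 lower with LPS, and 4 higher and 3 lower with IFN-β. There, 21.9% and 22.3% of all calls were higher. The median log2 fold change of the list was 1.29 with LPS and 0.56 with IFN-β, beside -0.04 and -0.02 for all genes. Compared with LPS, 4 were lower with IFN-β and none was higher, beside 23.3% and 25.8% of all tested genes. *Stat2*, a target of the type I receptor, rose with both treatments, by 2.48 with LPS and 2.15 with IFN-β on the log2 scale. Between IFN-β and LPS it was at -0.33, not called, but called with the library letter as a block (adjusted p = 0.0459, edgeR's quasi-likelihood test). *Irf9*, its partner, rose by 1.20 and 0.74.

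Among the STAT factors of other cytokines, *Stat5a*, *Stat5b* and *Stat3* differed between the treatments, and *Stat4* and *Stat6* were not called between them under TMM. *Stat5a* and *Stat5b*, which act after GM-CSF, rose by 2.68 and 1.29 with LPS and were at 0.03 and 0.05 with IFN-β, not called, with a difference between the treatments of -2.66 and -1.23 (edgeR's quasi-likelihood test, adjusted p = 2e-08 and 1.1e-07). On library size alone the IFN-β values turned to -0.28 and -0.25 and were called lower. *Stat3*, the main STAT of IL-6 and IL-10, rose by 1.73 with LPS and by 0.56 with IFN-β. *Stat4*, known from IL-12 signalling, rose by 0.75 and 0.59, and *Stat6*, the STAT of IL-4, stood at 0.17 and 0.11, not called, and was called lower with both on library size alone, at -0.41 and -0.20. With the library letter as a block it was called higher with LPS (adjusted p = 0.0169, edgeR's quasi-likelihood test). *Jak3*, the Janus kinase of the common γ chain, was called higher by 0.41 with LPS and 0.36 with IFN-β, and on library size alone neither was called, the LPS value turning to -0.17 and the IFN-β value going to 0.05.

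**Figure D5:**
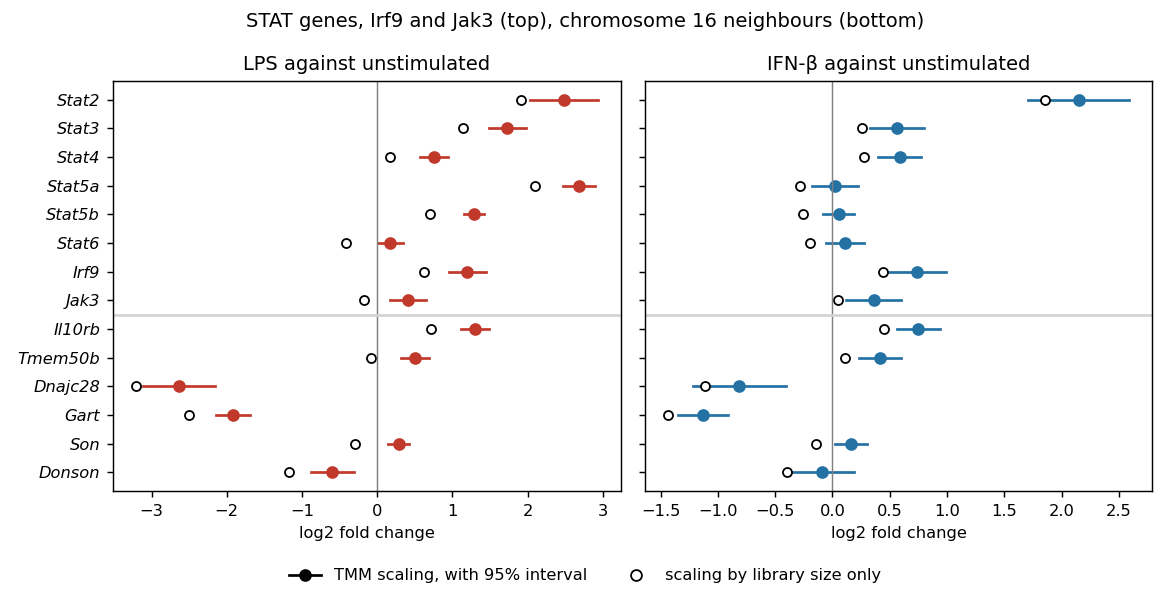
Log2 fold change of the STAT genes, *Irf9* and *Jak3* (above the line) and of 6 chromosome 16 neighbours (below it) with LPS and with IFN-β, filled points with 95% intervals under TMM and open points under library size alone. *Stat5a* stood at 2.68 with LPS and 0.03 with IFN-β, *Stat2* at 2.48 and 2.15, and points near 0 such as *Son*, *Stat6* and *Tmem50b* changed side with the scaling.

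All 16 interferon-stimulated genes of the list were higher with each treatment, with a median log2 fold change of 4.82 with LPS and 3.96 with IFN-β, beside 32.8% and 23.6% of all tested genes called higher. *Cxcl10*, a chemokine that attracts T cells, rose by 9.62 and 7.03, and *Rsad2*, an antiviral enzyme, by 8.05 and 6.22. Compared with LPS, 10 of the 16 were lower with IFN-β and none was higher, beside 23.3% and 25.8% of all tested genes, with a median of -1.0, and *Cxcl10* was lower by 2.59 and *Rsad2* by 1.83 on the log2 scale.

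Of 21 genes that restrain JAK-STAT signalling, 15 were higher and 3 lower with LPS (median 0.66). With IFN-β 10 were higher and 1 lower (median 0.21). Of all tested genes 68.2% were called with LPS (32.8% higher, 35.4% lower) and 46.9% with IFN-β (23.6% higher, 23.3% lower). On library size alone the counts were 9 higher and 9 lower with LPS and 7 higher and 3 lower with IFN-β. There, 21.9% and 22.3% of all calls were higher. *Usp18*, which blocks the kinase at IFNAR2 and is itself an interferon-stimulated gene, rose by 4.71 with LPS and 3.69 with IFN-β. *Socs3* rose by 3.70 with LPS, and *Socs1*, which inhibits the Janus kinases directly, was the next after *Usp18* with IFN-β, at 1.83. *Socs6* and *Socs5* fell by 1.21 and by 0.52 with LPS, and *Socs5* fell by 0.33 with IFN-β. Compared with LPS, 4 were higher with IFN-β, led by *Socs6* (1.27) and *Sh2b3* (0.27), and 11 were lower, led by *Socs3* (-2.58) and *Usp18* (-1.03). The shares of all tested genes were 25.8% higher and 23.3% lower. On library size alone 7 were higher and 7 lower, where 77.9% of all calls were higher. With the library letter as a block, 13 of the 21 were called with IFN-β in place of 11, and 18 in place of 15 between IFN-β and LPS. Over all tested genes the block called 9151 in place of 7631 with IFN-β, and 9425 in place of 7989 between the treatments.

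Upstream of *Ifnb1*, 12 of 17 genes that lead from TLR4 to its transcription were higher and 2 lower with LPS (median 0.73). With IFN-β 11 were higher and 2 lower (median 0.40). Of all tested genes 68.2% were called with LPS (32.8% higher, 35.4% lower) and 46.9% with IFN-β (23.6% higher, 23.3% lower). On library size alone the counts were 8 higher and 7 lower with LPS, and 5 higher and 4 lower with IFN-β. There, 21.9% and 22.3% of all calls were higher. *Irf7*, which amplifies interferon production, rose by 3.34 with LPS and 3.12 with IFN-β, and *Irf1* rose by 2.01 with IFN-β. *Cd14*, the co-receptor that hands LPS to TLR4, rose by 3.21 with LPS and fell by 0.27 with IFN-β. *Jun* and *Tlr4* fell by 1.5 and by 0.63 with LPS, and *Irf3* fell by 0.30 with IFN-β. Compared with LPS, 3 were higher with IFN-β, led by *Jun* (1.75) and *Tlr4* (1.03), and 8 were lower, led by *Cd14* (-3.48) and *Nfkb1* (-1.66). The shares of all tested genes were 25.8% higher and 23.3% lower. On library size alone 5 were higher and 6 lower, where 77.9% of all calls were higher. With the library letter as a block, 15 of the 17 were called with IFN-β in place of 13, and 13 in place of 11 between IFN-β and LPS. Over all tested genes the block called 9151 in place of 7631 with IFN-β, and 9425 in place of 7989 between the treatments.

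Other receptor chains that use Janus kinases were measured for comparison, 25 of 31 with enough counts. With LPS 17 were higher and 6 lower (median 0.60), and with IFN-β 11 were higher and 5 lower (median 0.29). Of all tested genes 68.2% were called with LPS (32.8% higher, 35.4% lower) and 46.9% with IFN-β (23.6% higher, 23.3% lower). On library size alone 11 were higher and 10 lower with LPS, and 9 were higher and 8 lower with IFN-β. There, 21.9% and 22.3% of all calls were higher. *Il23r*, a chain of the IL-23 receptor, rose by 3.91 with LPS and 2.86 with IFN-β, and *Il12rb1*, which it pairs with, rose by 2.47 and 3.73. *Lifr*, the receptor of leukaemia inhibitory factor, fell by 2.68 and by 1.11. *Ifnlr1*, the specific chain of the interferon-λ receptor, fell by 2.29 with LPS, and *Lepr*, the leptin receptor, fell by 1.13 with IFN-β. Compared with LPS, 6 were higher with IFN-β, led by *Lifr* (1.57) and *Ifnlr1* (1.54), and 5 were lower, led by *Il23r* (-1.05) and *Il10rb* (-0.55). The shares of all tested genes were 25.8% higher and 23.3% lower. On library size alone 13 were higher and 2 lower, where 77.9% of all calls were higher. With the library letter as a block, 20 of the 25 were called with IFN-β in place of 16, and 15 in place of 11 between IFN-β and LPS. Over all tested genes the block called 9151 in place of 7631 with IFN-β, and 9425 in place of 7989 between the treatments.

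Across the 9 libraries, the genes with the pattern most like each of the 8, by Pearson's r of log2(CPM + 0.5), were *Gpr132* (r = 0.999) and *Lmo4* (0.998) for *Ifnb1*, *Mylip* (0.999) and *Stat3* (0.998) for *Ifnar2*, and *Zfand3* (0.999) and *Dnajc13* (0.998) for *Ifnar1*. For *Ifngr1* they were *Cenpo* (0.996) and *Pip4k2b* (0.995), and for *Ifngr2* the closest was *Sash1* (0.997). For the kinases they were *Gng12* (0.999) and *Zeb1* (0.998) for *Jak2*, *Pitpnc1* (0.998) and *Spop* (0.996) for *Jak1*, and *Polr3b* (0.997) and *Gjb2* (0.996) for *Tyk2*. With 9 libraries in 3 conditions such values are common, and between 856 and 1291 genes had an r over 0.95 with any 1 of the 8.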

How the data were processed

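RNA was extracted with TRIzol from 9 samples of bone marrow-derived DCs and sequenced from rRNA-depleted libraries. Per the study's methods, the authors trimmed the reads, mapped them to mm10 with STAR and counted them per GENCODE gene in the same run, a counting that leaves out reads overlapping more than 1 gene. The submitters' processing notes name STAR 2.7.8a and Trim Galore 0.6.0. The values the authors deposited are raw counts of reads for each gene in each library, not normalized.

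The counts were tested with edgeR 4.0.16 (limma 3.58.1, R 4.3.3): TMM factors, the filterByExpr filter, which left 16260 of 55471 genes, and 1 quasi-likelihood model with a term per condition over the 9 libraries. The Benjamini-Hochberg adjustment was made over the 16260 genes, and an adjusted p under 0.05 was called. The standard error is the absolute log2 fold change divided by the square root of F. The pseudocount for single libraries was 0.5 CPM. The test was checked on simulated counts in which few genes changed. In these libraries most tested genes were called with LPS, so that check does not cover the scaling. The intervals of the pooled *Ifnb1* counts and the floors cover counting error only, while the intervals of the model include the spread between libraries. Gene positions and exon lengths are those of GENCODE M21 (GRCm38), which held 55144 of the identifiers, and promoter sequences are those of RefSeq (GRCm38.p6), found for all 8 genes. The counts were made on another GENCODE release.

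The genes and gene lists were chosen with earlier results of these data known. Named were the 8 genes, the STAT genes, *Irf9*, *Jak3*, the chromosome 16 neighbours, and in each list the 2 called genes with the largest change in each direction of each comparison, and for each of the 8 the 2 genes most alike in pattern. Results for a few genes are not reported here. Deviations from the condition means correlated positively between libraries of the same letter (r from 0.134 to 0.546 in 9 pairs). Between different letters r went from -0.480 to 0.0622 in 18 pairs. Deviations in a condition sum to 0, so positive values within a letter force negative ones elsewhere, which are no separate support. The letter was taken as pairing the libraries in the blocked alternative only. The main model and the permutation tests do not use it. Blocked values are given where they change a printed call of a gene or move the count called in a list by more than 1. Alternatives were other scalings, other filters, DESeq2 1.42.0, the block and leaving out each library.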

Additional observations from a re-analysis of the deposited data

How the results depend on the processing

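For the 8 genes, calls and directions held in 126, 124 and 120 of the recomputed values for LPS, IFN-β, and IFN-β against LPS; 1, 2 and 5 lost the call, 1 gained it and 1 changed sign. With library size alone, 4 of the 8 genes were called between IFN-β and LPS in place of 7, and *Jak1* turned to 0.0903. Over all tested genes that scaling called 9020 in place of 7989. With the library letter as a block, *Jak1* between IFN-β and LPS stayed at -0.19 and was called (adjusted p = 0.0142, edgeR's quasi-likelihood test). That made 8 of 8, where the block called 9425 of all tested genes in place of 7989. The block changed no other call among the 8. The fit on the compared conditions alone gave no value for *Ifnb1* between IFN-β and unstimulated DCs, since its counts there were under the filter. The depth limits *Ifnb1* in unstimulated DCs, where 1 count sets its ratio, and the other interferon genes. Among the 8, each call lost with library size alone was of a change of 0.67 or less on the log2 scale, and which scaling is right was not tested.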
